A study of Mus musculus with 2 samples.

Results

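Areg and Hbegf, which encode the epidermal growth factor receptor (EGFR) ligands amphiregulin and heparin-binding EGF-like growth factor, were 2 of the 32285 genes measured. They were picked by symbol with the difference between the libraries already known, so their levels are given as a description. The cells were labelled as γδ T lymphocytes, from mice of the C57BL/6J strain at an age of 18 to 20 weeks, with 1 library from colon tumor (labelled TIL_gdT, here TIL) and 1 from normal colon tissue (labelled IEL_gdT, here IEL). Transcript 3' ends were counted in single cells as unique molecular identifiers (UMIs), each standing for 1 captured molecule, so that levels can be set side by side between genes without a length correction. How the tumors arose, how many mice were pooled and how the γδ T cells were isolated are not given in the labels, and the extraction text names tumor tissue for both libraries. With 1 library a group no difference between tissues has a replicate check, tissue and library cannot be told apart, and every interval below is an exact 95% interval that covers counting error only.

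Both ligands are made as membrane-anchored precursors and are released by proteases of the ADAM family, chiefly Adam17. Amphiregulin binds EGFR with low affinity, and in lymphocytes it is best known from regulatory T cells and innate lymphoid cells, where it acts in epithelial repair. HB-EGF binds EGFR and ErbB4 and also heparan sulfate on cell surfaces. In the gut the receptor sits mainly on epithelial and stromal cells.

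Areg (ENSMUSG00000029378) lies on mouse chromosome 5 at chr5:91139599-91148432 on the plus strand (GRCm38, GENCODE), with 1 annotated transcript. Its family members Ereg and Epgn end 45952 and 104383 bp before it on the same strand, and Btc lies 208828 bp behind it on the other strand. Its promoter is shown because cAMP-dependent factors are known to act through an element there and because several of their genes are among those measured. The window chr5:91139349-91139648 (RefSeq, GRCm38.p6, plus strand, 250 bases before and 50 after the start) reads as follows, with the matches to TGACGTCA and TATAAA in capitals:

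Areg: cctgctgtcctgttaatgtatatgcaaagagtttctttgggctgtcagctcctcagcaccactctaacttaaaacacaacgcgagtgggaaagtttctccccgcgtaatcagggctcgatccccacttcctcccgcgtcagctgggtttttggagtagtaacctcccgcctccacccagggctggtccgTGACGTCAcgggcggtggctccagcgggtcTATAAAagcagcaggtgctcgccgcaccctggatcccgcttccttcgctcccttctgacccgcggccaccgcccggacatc

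The palindrome TGACGTCA, the cAMP response element, was found 1 time, its first base at -61 from the start, and 1.79% of the 32851 RefSeq windows of this length hold it. TATAAA was found 1 time at -31, and 13.6% of windows hold it on either strand. The AP-1 letters TGAGTCA and TGACTCA were not in this window and are in 5.20% of windows. No 2 of these matches overlap. A match describes letters and not a site in use.

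The TIL library held 94953893 UMIs in 13245 barcodes and the IEL library 69414155 UMIs in 9398 barcodes. The filter on cells asked for 500 genes or more, 1000 UMIs or more and no more than 10% mitochondrial UMIs. The cells it kept numbered 12407 in TIL (median 6465 UMIs and 2219 genes) and 9128 in IEL (median 6858.5 UMIs and 2421 genes). The 9 γδ T markers summed to 8861 UMIs per 1000000 UMIs of the library (CPM) in TIL and 4770 CPM in IEL, and the 5 αβ T markers to 1933 CPM in TIL and 2431 CPM in IEL. The γδ list includes Cd3e, Cd3d and Cd3g, which are not particular to γδ T cells. Its highest member was Trdc in TIL (3809 CPM) and Cd3g in IEL (1987 CPM). Of the kept cells, 7637 in TIL and 2010 in IEL had a UMI of Trdc or of a γ chain constant gene and none of Trac, so transcripts of both receptor types were present in both libraries. Joint clustering, from which the genes of the EGF system were left out, gave 20 clusters, and 33 barcodes were found in both libraries, without which the log2 ratios of TIL over IEL were 8.65 for Areg and 3.67 for Hbegf.

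Areg was among the abundant transcripts of the tumor library and close to absent from the normal colon library. It had 514277 UMIs in TIL cells, which is 5501 CPM (5486 to 5516), against 939 UMIs in IEL cells, which is 13.7 CPM (12.8 to 14.6). That is a 403-fold difference (378 to 430), or 8.65 on the log2 scale. A looser filter on cells (200 genes, 500 UMIs and up to 20% mitochondrial UMIs) gave 7.99 on the log2 scale. Il17a, the cytokine gene that defines IL-17-producing γδ T cells, had 4325 CPM in TIL, against 11.3 CPM in IEL, so the TIL library held 1.27 Areg UMIs for each Il17a UMI (1.27 to 1.28) and the IEL library 1.21 (1.10 to 1.33). Summed over all kept cells, the level of Areg was thus higher than that of Il17a in both libraries. In IEL, 1 epithelial-like cell without an Il17a UMI held 91 of the 939 Areg UMIs. The IEL cells classed below as IL-17-like had the other order, with Il17a at 1595 CPM, against 904 CPM for Areg.

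Hbegf was far less abundant than Areg in TIL. It had 7236 UMIs in TIL cells, or 77.4 CPM (75.6 to 79.2), against 418 UMIs in IEL cells, or 6.08 CPM (5.51 to 6.69). The difference was 12.7-fold (11.5 to 14.1), or 3.67 on the log2 scale, and 2.53 with the looser filter. In TIL there were 71.1 Areg UMIs for each Hbegf UMI (69.4 to 72.8), and in IEL 2.25 (2.0 to 2.53). The ligands therefore differed by much more from each other in the tumor library than in the normal colon library.

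To set cells of unequal depth side by side, each was thinned to 2000 UMIs, which left out 132 TIL and 76 IEL cells. Areg was then found in 57.2% of 12275 TIL cells (56.3 to 58.1) and in 0.630% of 9052 IEL cells (0.477 to 0.815). Before thinning the shares were 76.4% in TIL and 1.58% in IEL. At least 10 Areg UMIs after thinning were found in 27.0% of TIL cells and in 5 IEL cells. Hbegf was found in 8.92% of TIL cells (8.42 to 9.44) and in 1.09% of IEL cells (0.890 to 1.33), and before thinning in 17.9% of TIL and 3.09% of IEL cells.

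Areg was spread very unevenly over the tumor cells. The 10th percentile of TIL cells was 0 Areg UMIs, the median 3, the upper quartile 40, the 90th percentile 140, the 99th 404 and the highest cell 1000. The 10% of cells richest in Areg held 61.1% of its UMIs, against 27.2% for Cd3e, a chain of the T cell receptor complex. At 2000 UMIs a cell, the variance of Areg was 44.8 times its mean, that of Il17a 38.6 times and that of Cd3e 1.17 times. Hbegf had at most 70 UMIs in a TIL cell, and its 90th percentile was 1 UMI. The 10% of cells richest in Hbegf held 86.5% of its UMIs, and its variance at 2000 UMIs was 2.85 times its mean. Both measures depend on the mean, which at 2000 UMIs was 0.153 UMIs for Hbegf and 11.2 for Areg.

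**Figure D1:**
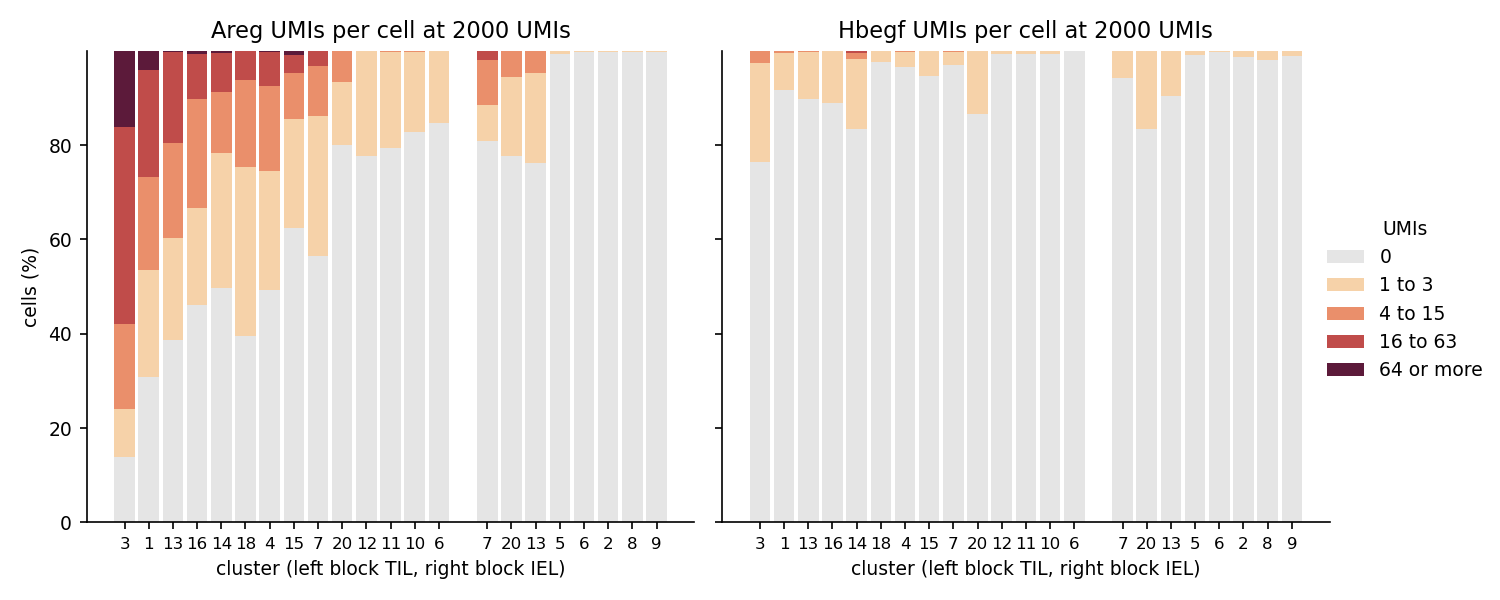
Share of cells (%, y axis) by number of Areg UMIs (left panel) and Hbegf UMIs (right panel) after thinning each cell to 2000 UMIs. The left block of each panel shows TIL clusters with at least 20 kept cells, of which at least 15 could be thinned. The right block shows 8 clusters in IEL. Cells with 64 or more Areg UMIs sit mainly in TIL clusters 3 and 1, and the large IEL clusters are almost wholly at 0.

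Within the tumor library, most Areg and Hbegf UMIs lay in IL-17-like cells. Clusters 1, 3, 4 and 7 were IL-17-like, with 7 to 10 of 13 markers of that type at 50 CPM or more. Clusters 13, 14, 16 and 18 had 7 to 9 of these markers too, but naming rules that came first put them elsewhere. The 9530 TIL cells of the IL-17-like clusters, 76.8% of the total, held 93.3% of all Areg UMIs and 87.5% of all Hbegf UMIs. Summed over them, Areg stood at 6767 CPM, against 124 CPM in the 1107 cytotoxic-like cells, of which 1057 were in clusters 11 and 12, 54.5-fold higher. The Areg UMIs of clusters 11 and 12 are given as levels only, since their source was not tested. Their ratio to Il17a was close to that of the whole library. The 54.5-fold difference rests on those UMIs and sets no upper limit. Hbegf stood at 89.4 CPM in the IL-17-like cells, against 2.85 CPM in the cytotoxic-like ones, 31.3-fold higher, on 20 UMIs in the cytotoxic-like cells. Both genes were left out of the clustering, but genes that move with them were not, so these contrasts are descriptions.

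Cluster 3, with 2567 TIL cells, carried the most of both ligands. Its leading genes are Serpine2, Mmp9, Nrn1, Rbm24, Lum, Nrgn, Gldc, Spp1, Lrrc17 and Tnfsf11, a set with matrix, protease-inhibitor and secreted-factor genes. Areg reached 14707 CPM there (14655 to 14760) and made up 58.9% of the library's Areg UMIs, and Hbegf reached 215 CPM (209 to 221) and made up 61.1% of its Hbegf UMIs. Relative to the other IL-17-like cells, cluster 3 was 4.18-fold higher in Areg, 5.65-fold higher in Hbegf and 2.69-fold higher in Il17a. At 2000 UMIs, 86.2% of its cells had an Areg UMI, 66.8% had at least 10, and 23.7% had an Hbegf UMI. Over its cells the median was 110 Areg UMIs per 10000, with quartiles of 20.1 and 244.

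The other IL-17-like clusters formed a descending series. Cluster 1 (3071 cells, led by Tpbg, Epas1 and Ramp3) had Areg at 6388 CPM and Hbegf at 61.4 CPM, with Areg in 69.1% of cells at 2000 UMIs. Cluster 4 (2106 cells, led by Il17f, Batf3, Vdr and Il22) had Areg at 2002 CPM and Hbegf at 24.6 CPM, with Areg in 50.8% of cells. Cluster 7 (1786 TIL cells, led by Stmn2, Tppp3 and Lmna) had Areg at 971 CPM and Hbegf at 19.1 CPM, with Areg in 43.5% of cells. The Areg intervals of these clusters do not overlap, whereas the Hbegf intervals of clusters 4 (22.4 to 26.9) and 7 (16.6 to 21.8) come close to each other. Cells within a cluster differed widely too, and in cluster 1 the quartiles were 1.88 and 85.3 Areg UMIs per 10000.

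**Figure D2:**
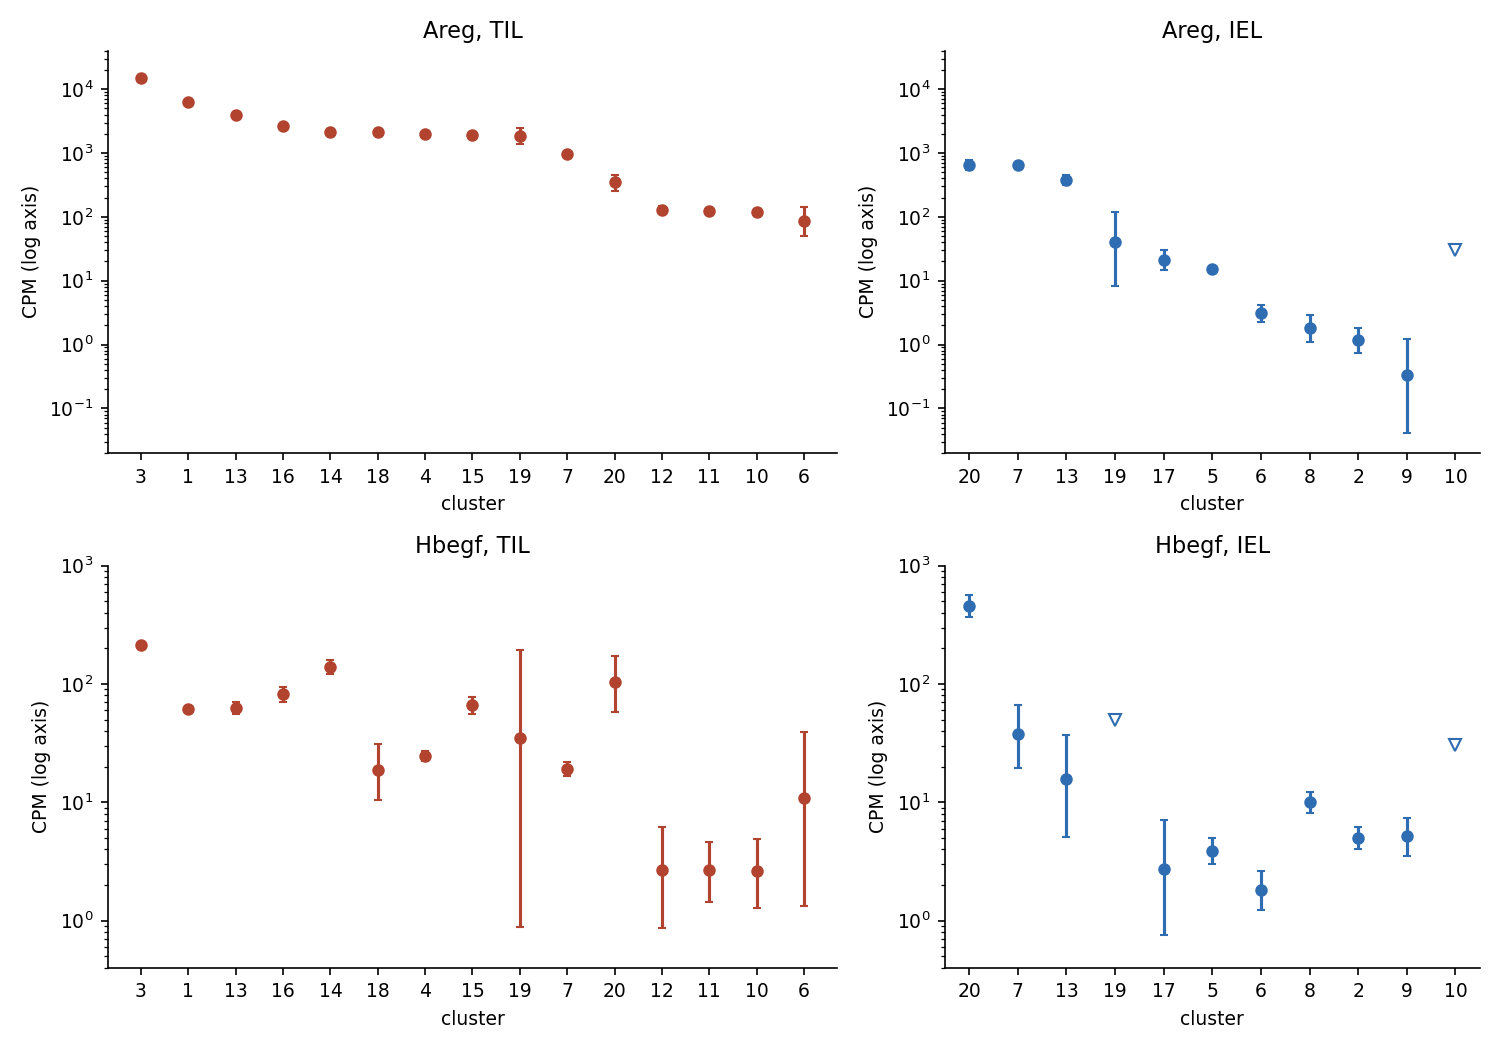
Level of Areg (top) and Hbegf (bottom) in CPM on a log axis, by cluster with at least 20 cells, in TIL (left, red) and IEL (right, blue), with clusters ordered by Areg in each library. Points are summed UMIs with exact 95% counting intervals and open triangles are upper limits where no UMI was found. TIL cluster 3 leads for both genes in TIL. In IEL, clusters 20 and 7 are highest, but 1 cell carries 91 of the 119 Areg UMIs and 49 of the 84 Hbegf UMIs of cluster 20.

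Clusters 10 to 12, which held the recirculating-like and most of the cytotoxic-like cells of the tumor, had nearly the same Areg level. It was 121 CPM in cluster 10, 122 CPM in cluster 11 and 129 CPM in cluster 12, with overlapping intervals. At 2000 UMIs, 17.3% to 22.3% of their cells had an Areg UMI, at median depths of 5002 to 5990 UMIs, against 86.2% in cluster 3 at a median of 6985. Their Areg to Il17a ratios were 1.23 (1.07 to 1.42), 1.28 (1.13 to 1.44) and 1.31 (1.08 to 1.60), and each interval takes in the 1.27 of the whole TIL library. The source of the Areg and Il17a UMIs in these clusters was not tested, so they are given as levels only. Hbegf was at 2.65 to 2.69 CPM in these clusters and in 0.587% to 0.714% of their cells at 2000 UMIs. Only 5 of their 1763 cells had 10 or more Areg UMIs, and all 5 also had an Il17a UMI.

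The IL-17-like clusters did not share that ratio. Cluster 1 had 1.79 Areg UMIs for each Il17a UMI (1.77 to 1.80) and cluster 3 had 1.56 (1.55 to 1.57), against 0.47 in cluster 4 (0.46 to 0.48) and 0.46 in cluster 7 (0.45 to 0.47). Il17a itself was higher in cluster 4 (4259 CPM) than in cluster 1 (3574 CPM), so the order of the clusters by Areg was not their order by Il17a. Il17f, the close relative of Il17a, ran the other way, with 802 CPM in cluster 4 and 282 CPM in cluster 7, against 43.7 CPM in cluster 1 and 45.9 CPM in cluster 3.

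**Figure D3:**
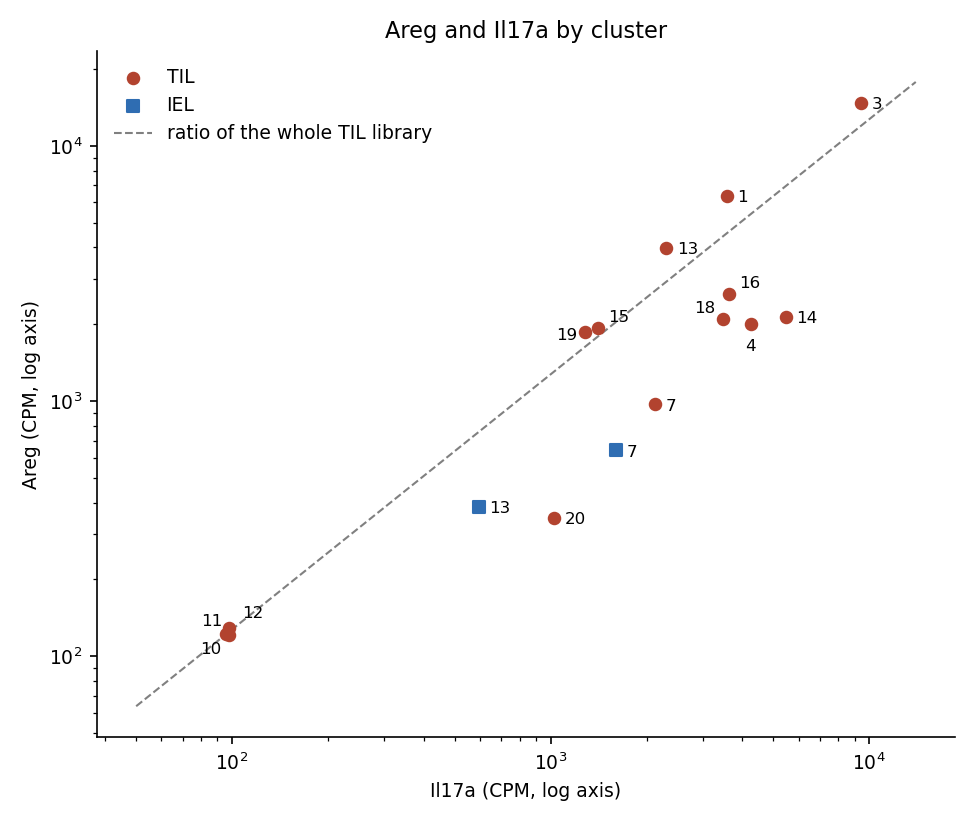
Areg against Il17a by cluster, both in CPM on log axes, for clusters with at least 20 cells and 20 UMIs of each gene, in TIL (red circles) and IEL (blue squares). The dashed line is the ratio of the whole TIL library, 1.27; clusters 10 to 12 lie on it, clusters 1 and 3 above it and clusters 4 and 7 below it.

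Further tumor clusters held ligand UMIs in droplets that also held γδ T transcripts. The 230 myeloid-like cells of cluster 15 had Areg at 1924 CPM and Hbegf at 66.3 CPM, beside Il17a at 1406 CPM and the δ chain gene Trdc at 941 CPM. The 81 Treg-like cells of cluster 18, where Foxp3, Il1rl1 and Cd4 are leading genes, had Areg at 2099 CPM and Hbegf at 18.9 CPM, beside Il17a at 3483 CPM and Trdc at 1530 CPM. The mixed cluster 13 (323 TIL cells, median 12795 UMIs) had Areg at 3984 CPM, beside Il17a at 2309 CPM. Cluster 14, with erythroid and plasma cell transcripts, had Areg at 2144 CPM and Hbegf at 139 CPM, beside Il17a at 5481 CPM. In cluster 15 the 11 mast cell and basophil markers summed to 1219 CPM, with Mcpt1 highest at 662 CPM. The part of T cell RNA in the levels of these clusters was not tested. Il17a UMIs were found beside those of Areg in each cluster named in this paragraph, and the source of their Areg was not tested.

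Marker lists of other known Areg sources gave a mixed picture in cluster 3, with some genes near 0 and others not. Ikzf2 was at 138 CPM in cluster 3, Gata3 at 18.5 CPM, Calca at 12.5 CPM and Il10 at 10.5 CPM. In cluster 18 the same genes were at 308, 91.9, 26.4 and 60.4 CPM. The ILC2 and Treg gene Il1rl1, which encodes the IL-33 receptor, was at 0.68 CPM in cluster 3, against 123 CPM in cluster 18. Foxp3 and Cd4 had 2 UMIs each in all of cluster 3, against 130 Foxp3 and 78 Cd4 UMIs in cluster 18. The 7 Treg markers nevertheless summed to 4142 CPM in cluster 3, close to the 4234 CPM of cluster 18. In cluster 3 the activation receptor gene Tnfrsf9 gave 2078 CPM of that sum, the checkpoint receptor gene Ctla4 1544 CPM and the IL-2 receptor gene Il2ra 371 CPM. The 11 mast cell and basophil markers summed to 0.83 CPM, with 8 of them at 0, and the 12 epithelial markers summed to 12.4 CPM. The 10 ILC2 markers summed to 1677 CPM in cluster 3 and 1685 CPM in cluster 18, of which Rora alone gave 1645 CPM in cluster 3, where Il4, Hes1 and Il17rb were at 0. The part of such cells in cluster 3 was not tested. Of the 2001 cells of cluster 3 with 10 or more Areg UMIs, 2000 had a Trdc UMI and 1931 an Il17a UMI. Il17a was found in 96.1% of all cluster 3 cells, so the latter count is near the share of the whole cluster. Trdc stood at 5167 CPM over all cluster 3 cells, so the Trdc count does not set the Areg-rich cells apart either.

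In normal colon, few cells accounted for the little Areg there was. The 10 cells with the most Areg held 519 of its 939 UMIs, 55.3%, and 22 cells had 10 or more. The 58 IL-17-like IEL cells, 0.635% of the library, held 34.3% of the Areg UMIs. The 8874 cytotoxic-like cells, 97.2% of the library, held 36.5%, and the 21 cells of the mixed cluster 13 held 12.9%. The 20 epithelial-like cells of cluster 20 held 12.7%, but 91 of their 119 Areg UMIs were in 1 cell, without which they held 3.30%, at 215 CPM (143 to 311), against 652 CPM with it. Of the 22 cells with 10 or more Areg UMIs, 9 were IL-17-like, and each of these 9 had an Il17a and a Trdc UMI. Another 7 were cytotoxic-like cells of cluster 5, with up to 67 Areg UMIs and 210 in all. None of these 7 had an Il17a UMI, all 7 had both Trdc and Trac, the αβ receptor gene, and their median depth was 13946 UMIs, against 7414 in their cluster. Il17a had 0 UMIs in all 2098 IEL cells of cluster 5, so its absence does not set these 7 apart. Trdc stood at 733 CPM and Trac at 459 CPM over that cluster, and the share of its cells with both is not given here. Whether these 7 droplets held more than 1 cell was not tested.

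Hbegf in normal colon was held differently from Areg. The cytotoxic-like cells, with 96.4% of the library's UMIs, carried 74.9% of its Hbegf UMIs, so their 4.72 CPM was below the 6.08 CPM of the library. The 20 epithelial-like cells carried 20.1%, at 460 CPM (367 to 569). The epithelial-like cell with 91 Areg UMIs also had 49 of their 84 Hbegf UMIs, at 52577 UMIs in all, and without it they held 9.49% of the Hbegf UMIs, at 269 CPM (187 to 374). Without it the log2 difference between TIL and IEL was 3.85 for Hbegf and 8.80 for Areg. Among the cytotoxic-like IEL clusters, cluster 8, led by the heat shock genes Hspa1b, Hspa1a and Dnajb1, had the highest Hbegf level, 9.98 CPM (8.11 to 12.1), against 1.83 to 5.22 CPM in clusters 2, 5, 6 and 9. Hbegf was found in 1.95% of cluster 8 cells at 2000 UMIs and in 0.245% of cluster 6 cells, at median depths of 6799 and 6941 UMIs.

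Cluster 7 was the one IL-17-like cluster with more than 50 cells in each library. Its 1786 TIL cells had Areg at 971 CPM (953 to 989), and its 52 IEL cells 641 CPM (556 to 736), 1.51-fold higher in TIL (1.32 to 1.75). Il17a stood at 2133 CPM in the TIL and 1606 CPM in the IEL cells, 1.33-fold higher in TIL (1.22 to 1.45). The Areg to Il17a ratio was 0.46 in the TIL cells (0.45 to 0.47) and 0.40 in the IEL cells (0.34 to 0.47), with overlapping intervals. Hbegf was 19.1 CPM in the TIL and 38.1 CPM in the IEL cells, or 0.50-fold (0.28 to 0.98), on 12 UMIs in IEL. Single IEL cells weighed on these values. One of them had 61 Areg UMIs, and without it Areg was 2.13-fold higher in TIL (1.80 to 2.53) and the Areg to Il17a ratio of the IEL cells was 0.28 (0.23 to 0.34), below and apart from that of the TIL cells. Another had 5 of the 12 Hbegf UMIs, and without it the Hbegf ratio was 0.85-fold (0.40 to 2.13), with 1 inside the interval. Areg thus differed 1.51-fold within cluster 7, or 2.13-fold without that cell, and 403-fold between the whole libraries. Of cluster 3 there were 0 of 9128 IEL cells, and a limit set at 3 cells, which is not one of the exact intervals, allows a share of up to 0.0329%, and a cluster of 1 library may mark that library.

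Hbegf was found more often in tumor cells with Areg than in tumor cells without it. At 2000 UMIs, 12.4% of TIL cells with Areg also had Hbegf (11.6 to 13.2), against 4.30% of TIL cells without Areg (3.77 to 4.88), and 79.4% of cells with Hbegf had Areg. Over all TIL cells the share with Hbegf was 4.30% at 0 Areg UMIs, 5.58% at 1 to 3, 10.1% at 4 to 15, 18.8% at 16 to 63 and 27.7% at 64 or more. The share also differed between clusters. Within cluster 3 the share was 19.8% (15.8 to 24.4) at 0 Areg UMIs and 30.9% (26.5 to 35.6) at 64 or more, and within cluster 1 it was 7.11% (5.55 to 8.94) at 0 and 16.5% (10.5 to 24.2) at 64 or more. A cluster 3 cell without Areg thus had Hbegf more often than cluster 1 cells in the 16 to 63 bin, of which 9.70% had it (7.59 to 12.1).

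**Figure D4:**
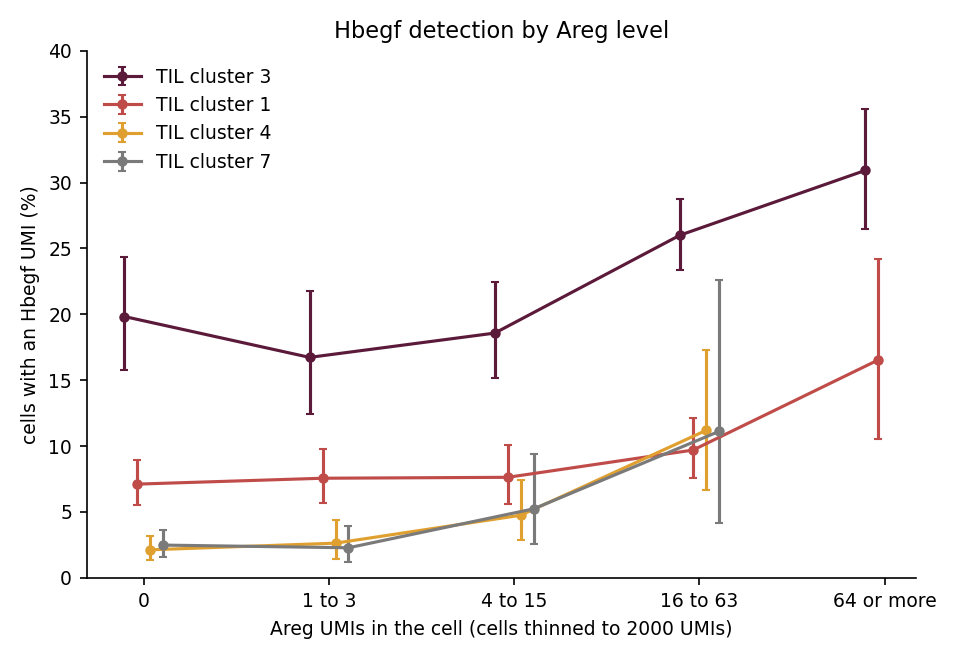
Share of cells with an Hbegf UMI (%, y axis) by number of Areg UMIs in the same cell (x axis), after thinning to 2000 UMIs, in TIL clusters 3, 1, 4 and 7. Bars are exact 95% intervals; bins with no point held too few cells. Cluster 3 lies between 16.7% and 30.9%, above cluster 1 at every Areg level.

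Correlations over cells, as Pearson's r of log2(1 + UMIs per 10000), describe cells that share 1 library and its depth, and carry no test. Areg and Hbegf had r = 0.29 over the 12407 TIL cells and r = 0.11 over the 9128 IEL cells, and the IEL value was 0.05 without the epithelial-like cluster. In TIL, 140 of 7513 genes had r of at least 0.2 with Areg and 26 had r of at most -0.2. The highest were Il17a (0.44), the endothelin-converting protease gene Ece1 (0.41), the heparan sulfate proteoglycan gene Sdc4 (0.40), the creatine kinase gene Ckb (0.40) and Tmem176a (0.37). Next came Itm2b (0.37), the costimulatory receptor genes Icos (0.36) and Tnfrsf9 (0.36), Sgip1 (0.36) and the scavenger receptor gene Cd163l1 (0.36). The lowest were Fau (-0.39), the translation elongation factor genes Eef1a1 (-0.39), Eef1b2 (-0.30) and Eef2 (-0.30), and Rack1 (-0.34), whose product sits on ribosomes. The r of Areg with the log2 of a cell's total UMIs was 0.09.

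Hbegf had 26 genes at r of at least 0.2 in TIL and 3 at -0.2 or less. After Areg came Tnfsf11, which encodes the cytokine RANKL (0.28), Cystm1 (0.27), Sdc4 (0.27), Ckb (0.27), Serpine2 (0.25), Il17a (0.25), Rbm24 (0.24), the chemokine receptor gene Ccr1 (0.24) and Neb (0.24). The lowest were Eef1a1 (-0.26), Fau (-0.25) and Rack1 (-0.22). Leaving the members themselves out, all 25 of the Hbegf genes were also among the 139 Areg genes, which is 18.0% of the Areg genes and 100% of the Hbegf genes. Within single clusters little remained. The genes at 0.2 or more with Areg numbered 1 in cluster 1, 4 in cluster 4 and 1 in cluster 7. Among 7522 genes compared within cluster 3, none reached 0.2 with Areg, and Cystm1 (0.25) was the single one with Hbegf, while r between Areg and Hbegf was 0.10 in cluster 3 and 0.13 in cluster 1.

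In IEL, S100a6 (0.22) was the single gene at 0.2 or more with Areg among 7905 genes found in at least 5% of cells, and no gene reached 0.2 with Hbegf. Below that detection limit, Il17a had r = 0.40 and the IL-1 receptor gene Il1r1 r = 0.38 with Areg, though Il17a was found in 0.822% and Il1r1 in 0.581% of IEL cells. At 2000 UMIs, 14 of the 57 IEL cells with Areg had Il17a, 24.6% (14.1 to 37.8), against 0.422% of cells without Areg (0.299 to 0.579). In TIL, 74.3% of cells with Areg had Il17a, against 50.7% of those without. Il17f had r = -0.05 with Areg in TIL.

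By level over the 12 clusters with at least 50 TIL cells, the genes most like Areg among 7189 compared were Mcc (r = 0.99), the atypical chemokine receptor gene Ackr3 (0.98), the glycine decarboxylase gene Gldc (0.97), Sgip1 (0.97) and the myosin gene Myo10 (0.97). For Hbegf they were Glyat (0.96), Crispld2 (0.95), Lrrc17 (0.95), Cdk14 (0.95) and Serpine2 (0.95). Areg and Hbegf had r = 0.93 with each other over these clusters, and Il17a had 0.94 with Areg and 0.90 with Hbegf. Ackr3, for example, was at 65.4 CPM in cluster 3, 43.6 CPM in cluster 1 and 0.62 to 1.07 CPM in clusters 10 to 12.

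Of the 11 EGF-family ligand genes, Areg and Hbegf were the only ones at 20 CPM or more in either library. For scale, 6343 genes reached 20 CPM in either library, and 11.3% of them were at least 2-fold higher in TIL with an interval excluding 1, 13.6% at least 2-fold lower, with a median log2 ratio of -0.10. Ereg, which encodes epiregulin and lies next to Areg on chromosome 5, had 266 UMIs in TIL and 2 in IEL, a log2 ratio of 6.61 (4.75 to 9.67). Cluster 3 held 216 of those 266 Ereg UMIs, or 81.2%, and cluster 1 held 28. The other ligands of EGFR were close to absent. Egf had 59 UMIs in TIL and 132 in IEL, Tgfa 18 in TIL and 24 in IEL, Btc 3 in TIL and 5 in IEL, and Epgn 1 in TIL and 0 in IEL. Among the neuregulins, Nrg2 had the most UMIs, 140 in TIL and 279 in IEL, a log2 ratio of -1.44 (-1.74 to -1.14). Nrg1 had 61 UMIs in TIL, where the myeloid-like cluster was highest at 25.8 CPM, and 3 UMIs in IEL.

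None of the 4 receptor genes reached 20 CPM. Egfr had 21 UMIs in the 12407 TIL cells and 2 in the 9128 IEL cells, Erbb2 35 in TIL and 14 in IEL, Erbb3 129 in TIL and 199 in IEL, and Erbb4 0 in both. In cluster 3, the cells with the most ligand transcript, Egfr stood at 0.24 CPM. At this depth transcript of the receptors was close to the limit of detection in either library.

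Of 12 genes for shedding and surface partners, 8 reached 20 CPM and 7 of these were at least 2-fold higher in TIL, with a median log2 ratio of 2.01. Adam17, the main sheddase of amphiregulin, had 39.5 CPM in TIL, against 11.3 CPM in IEL (log2 ratio 1.81). Adam10 was 1.25, Adam9 3.03 and the maturation protease gene Furin 1.49 higher on that scale. Adam12, which encodes a protease known to cut HB-EGF, had 40.2 CPM in TIL, against 0.17 CPM in IEL, or 7.85 (7.04 to 8.80). Cd44, which carries HB-EGF on heparan sulfate, had 395 CPM in TIL, against 59.1 CPM in IEL, and Cd82 had 415 CPM in TIL, against 90.1 CPM in IEL. Cd9, the tetraspanin known to bind pro-HB-EGF, had a log2 ratio of 0.46, and its TIL level was led by the myeloid-like cluster at 658 CPM, against 1.60 CPM in cluster 3.

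Adam17 did not follow the ligands among the tumor clusters. It was at 42.8 CPM in cluster 3, 42.2 CPM in cluster 1, 42.2 CPM in cluster 4 and 36.6 CPM in cluster 7, while Areg was 15.2-fold higher in cluster 3 than in cluster 7. Adam12 was at 36.2 to 54.3 CPM in the same 4 clusters and at 0 to 0.83 CPM in clusters 10 to 12. Over single TIL cells r with Areg was 0.04 for Adam17 and 0.10 for Adam12.

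Of 15 genes for negative regulators of EGFR signalling, 11 were measured, 3 were higher in TIL and 3 lower, with a median log2 ratio of -0.09. The higher ones were the MAP kinase phosphatase gene Dusp4 (4.09), Spry1 (3.86) and Socs3 (1.42). The lower ones were Spry2 (-2.69), Dusp6 (-2.11) and Errfi1, which encodes the EGFR inhibitor MIG6 (-1.68). Errfi1 had 48.9 CPM in TIL, against 157 CPM in IEL, and Spry2 had 15.6 CPM in TIL, against 100 CPM in IEL, so genes of the same family, Spry1 and Spry2, ran in opposite directions. Among the IL-17-like clusters, Errfi1 was at 90.6 CPM in cluster 3 and 22.4 to 37.6 CPM in the other 3, and Spry1 at 53.4 CPM in cluster 3 and 10.3 to 17.6 CPM in the others. Cytotoxic-like cluster 12 had more Errfi1 still, 164 CPM.

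**Figure D5:**
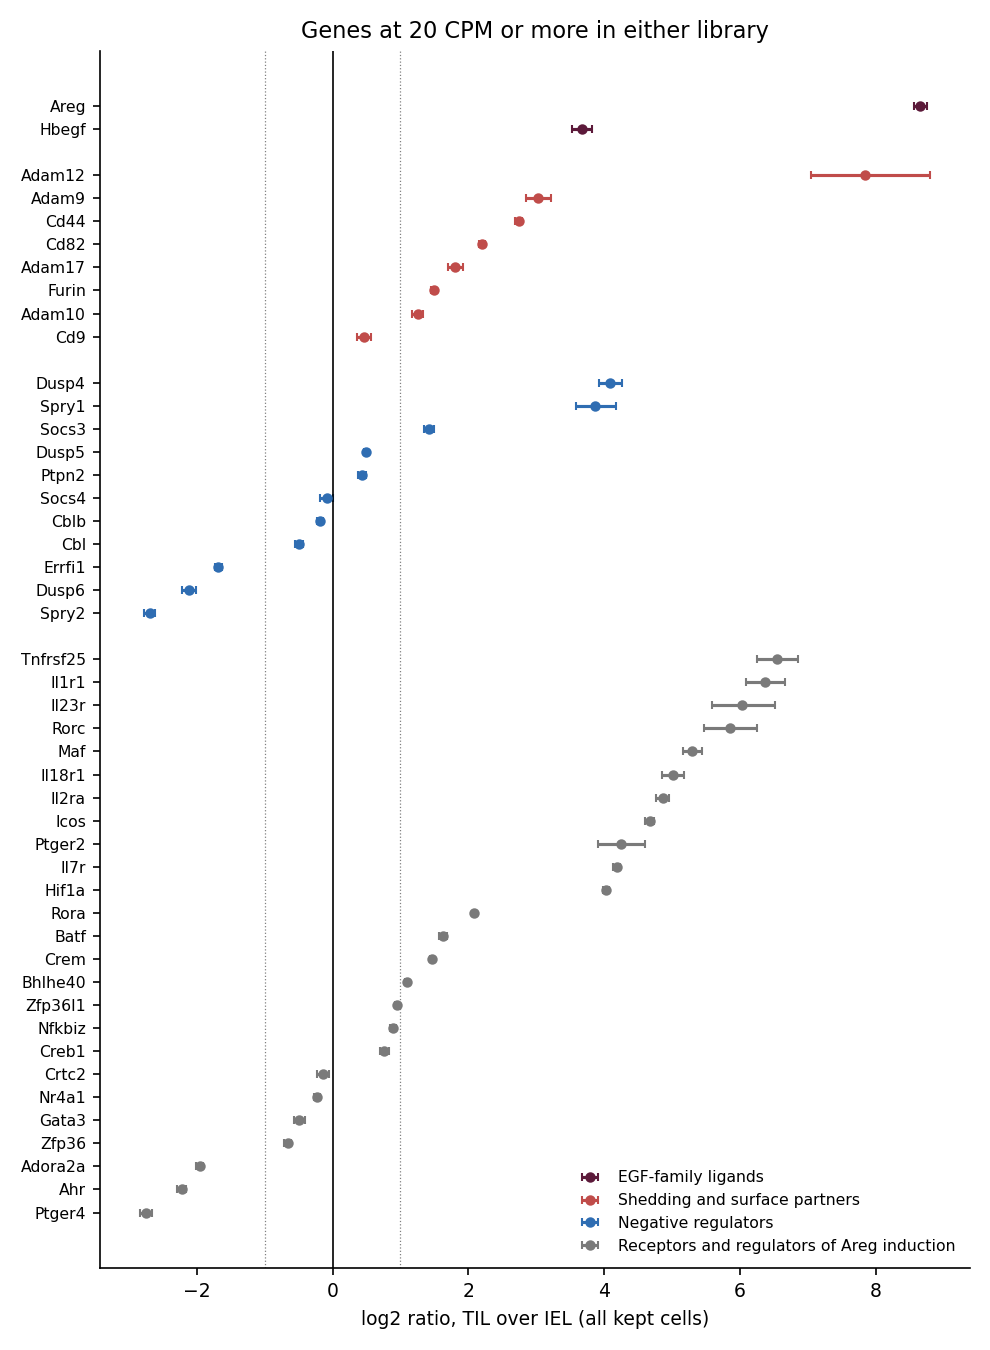
Log2 ratio of TIL over IEL for the genes of 4 lists at 20 CPM or more in either library, grouped by list and ordered by ratio; bars are exact 95% counting intervals, and dotted lines mark 2-fold. Areg lies at 8.65 and Hbegf at 3.67, while the negative regulators lie between -2.69 and 4.09.

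Of 27 receptors and regulators linked to Areg induction in lymphocytes, 25 were measured, 15 were higher in TIL and 3 lower, with a median log2 ratio of 1.63. Receptor genes of the IL-1 family and of TNF-like ligands were among the higher ones, with Il1r1 at 122 CPM in TIL, against 1.48 CPM in IEL, and Il18r1 at 156 CPM in TIL, against 4.84 CPM in IEL. Tnfrsf25, the receptor gene for TL1A, had 132 CPM in TIL, against 1.41 CPM in IEL. Icos had 833 CPM in TIL, against 32.8 CPM in IEL. Il1rl1 was below 20 CPM, with 178 UMIs in TIL and 0 in IEL. The hypoxia factor gene Hif1a had 964 CPM in TIL, against 59.2 CPM in IEL, with r = 0.34 with Areg over TIL cells. Il18r1 was higher in clusters 1 (303 CPM) and 7 (269 CPM) than in cluster 3 (93.4 CPM), and its r with Areg over TIL cells was -0.01.

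Genes of the prostaglandin E2 and cAMP path, whose factors are known to bind TGACGTCA, did not all differ in 1 direction. Of its receptor genes, Ptger4 had 13.7 CPM in TIL, against 92.1 CPM in IEL (log2 ratio -2.75), and Ptger2 had 20.2 CPM in TIL, against 1.06 CPM in IEL (4.25). The adenosine receptor gene Adora2a had 44.5 CPM in TIL, against 173 CPM in IEL (-1.96). Crem, the cAMP-responsive modulator gene, had 783 CPM in TIL, against 285 CPM in IEL (1.46). It was at 1082 CPM in cluster 3, 1063 CPM in cluster 1 and 585 CPM in cluster 4. Its r with Areg was 0.31 over TIL cells and 0.13 within cluster 3. Creb1 (0.76) and Crtc2 (-0.14) were less than 2-fold apart. The third gene on the lower side was the aryl hydrocarbon receptor gene Ahr, with 25.9 CPM in TIL, against 121 CPM in IEL (-2.22).

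Of 18 other repair-type transcripts, 6 were measured and 5 were higher in TIL, with a median log2 ratio of 7.06. Those 5 were Il17a, Il17f, Il22, Tgfb1 and the matrix protease gene Mmp9, and Lgals3 (-0.69) was the exception. Mmp9 was at 139 CPM in cluster 3, against 1.87 to 9.81 CPM in the other IL-17-like clusters, but it is also a leading gene of that cluster. Tgfb1 was at 618 CPM in cluster 3 and 442 to 569 CPM in the other 3, a much flatter profile than that of Areg. The type 2 cytokine genes Il4 and Il13, which accompany Areg in innate lymphoid cells, were close to absent. Il4 had 10 UMIs in TIL and 5 in IEL, and Il13 had 24 UMIs in TIL and 1 in IEL.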

How the data were processed

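Single cells of 1 tumor and 1 normal colon library were profiled with 10x Genomics 3' v3 chemistry, per the labels' protocols. Reads were counted against mm10 with Cell Ranger 6.1.1, per the submitters' processing notes. The values deposited by the authors are raw UMI counts of each gene in each barcode, per the file headers. The cell calling step is not given in the sources used here.

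The members and all gene lists were chosen with earlier results of these data known. Both libraries were clustered together with Scanpy 1.11.5 and Leiden (igraph 0.11.9, resolution 1, 2000 variable genes, 30 components, 15 neighbours) without batch correction. The variable genes were taken without the EGF system, receptor segments, sex-linked and mitochondrial genes, and genes for haemoglobin or immunoglobulins. A cluster was named where at least 3 markers of a type reached 50 CPM, other cell types also needing 4-fold over other cells. These naming limits were set after the data were seen. Scrublet called 0 TIL and 2 IEL doublets, which was taken as not working, and no doublets were removed; a cluster with a median score above 0.2 was left unnamed as mixed.

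Levels are UMIs of a gene summed over cells, per 1000000 UMIs of those cells (CPM). Ratios have exact conditional, levels exact Poisson and shares exact Clopper-Pearson 95% intervals, all for counting error only. A list gene was counted as higher or lower at 20 CPM or more in either library, 2-fold and an interval excluding 1. No test was made, since each group had 1 library. Correlates named in the text are the 10 highest and 5 lowest by r, at 0.2 or more in size, among genes found in at least 5% of a library's cells, and the 5 genes most like each member over clusters. Ribosomal, mitochondrial and unnamed model genes were left out. Genes named within single clusters, Il17a and Il1r1 in IEL, and the leading genes of clusters were chosen after their values were seen. Promoter letters are from RefSeq (GRCm38.p6) and gene positions from GENCODE (GRCm38); no protein table was used here. The ratio intervals were tested on simulated Poisson counts, which hold no spread between cells. The correlation was tested on simulated counts, and the thinning on a part of the TIL cells. Alternatives tried were other filters on cells, totals, thinning depths, cluster resolutions, cell selections and level limits.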

Additional observations from a re-analysis of the deposited data

Results flagged for a closer look

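The IEL barcodes outside the filter on cells, which the reported levels leave out, held more of both ligands per UMI than the cells that were kept. Of 270 such barcodes the looser filter takes in 135, the 2 richest among them, so they enter its log2 ratios of 7.99 for Areg and 2.53 for Hbegf. In the 270 barcodes Areg stood at 990 CPM, against 13.7 CPM in kept IEL cells, and Hbegf at 907 CPM, against 6.08 CPM in kept IEL cells. The 2 with the most of both genes had 102631 and 105765 UMIs in all, 13.2% and 12.4% of them mitochondrial, and held 513 of the 646 Areg UMIs and 445 of the 592 Hbegf UMIs. In these 2 barcodes 10 of 12 epithelial markers had UMIs and summed to 19444 CPM, against 110 CPM in kept IEL cells. Without them Areg stood at 299 CPM and Hbegf at 331 CPM in the remaining IEL barcodes outside the filter. In the 838 TIL barcodes outside the filter Areg was at 1385 CPM and Hbegf at 46.9 CPM, both below the kept TIL cells.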

How the results depend on the processing

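No paired analysis was possible because each group had 1 library. No ratio or correlation changed sign in any of 61 settings. In 30 settings the value moved past its interval, and in 31 it was labelled as the same. The counts of list genes have no interval and were all labelled as the same, though they ran from 8 to 16. The log2 ratio of Areg between TIL and IEL, reported as 8.65, was 7.99 with the looser filter, 8.88 as a mean over cells, 9.08 in cells with a Trdc or γ chain UMI and none of Trac, 9.11 without the 5% of cells with the most UMIs, 8.87 without clusters named for other types and 8.80 without the IEL cell richest in Areg. That of Hbegf, reported as 3.67, was 2.53 with the looser filter, 3.41 in the cells chosen by receptor transcripts, 3.84 without the deepest 5% of cells, 3.99 without clusters named for other types and 3.85 without the IEL cell richest in Hbegf. The removal of 1 cell, of barcodes found in both libraries and of the epithelial-like cluster, and the use of clusters 11 and 12 alone, were chosen after seeing the data. Shares of cells depend on depth. Areg was found in 48.5% of TIL cells at 1000 UMIs and 76.4% unthinned, and in 1.58% of IEL cells unthinned. Hbegf was found in 5.06% of TIL cells at 1000 UMIs and 17.9% unthinned, and in 0.493% of IEL cells at 1000 UMIs and 3.09% unthinned. The r of Areg with Hbegf in TIL was 0.22 after thinning and 0.26 in IL-17-like cells. In IEL it was 0.0645 as Spearman's rho, 0.0282 after thinning, 0.0728 with the stricter filter, 0.0524 in cytotoxic-like cells and 0.0493 without the epithelial-like cluster. With TIL cells clustered alone, the Areg log2 ratio of IL-17-like over cytotoxic-like cells was 5.61, against 5.77 as reported and also with clusters 11 and 12 alone. The count of 12 genes higher in TIL over the lists of ligands, receptors, shedding and surface partners, and negative regulators was 16 from 5 CPM and 8 from 50 CPM. The causes were not tested. Depth limits what can be said of Egfr, Erbb2, Epgn, Btc and Tgfa, with 35 UMIs or fewer in either library.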

Other observations

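Within the 9530 IL-17-like cells of the tumor, the genes with the highest r to Areg included granzyme genes, which are better known from cytotoxic cells. Gzma had r = 0.33 and Gzmb r = 0.32 with Areg, beside 0.35 for the cytokine receptor gene Il21r and 0.34 for Il17a, and after thinning each cell to 2000 UMIs the values were 0.31 for Gzma, 0.29 for Gzmb and 0.32 for Il17a. Within single clusters, Gzma was the next highest after Il17a (0.21) in cluster 1, at r = 0.19, and neither granzyme gene was among the 10 highest in clusters 3, 4 and 7. In cluster 3 the AP-1 gene Junb (0.18) came first. These genes were picked after their values were seen, and the cells share 1 library.

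Other secreted-factor genes of the tumor library differed in how far they shared clusters with Areg and Hbegf. Cluster 3 held 863 of the 1231 TIL UMIs of Penk, the enkephalin precursor gene, or 70.1%. The level of Penk was 41.9 CPM there and 161 CPM in the Treg-like cluster 18, which held 10.4% of the UMIs, and 0.35 to 3.59 CPM in the other IL-17-like clusters. Osm (206 CPM), Vegfa (130 CPM) and Pdgfa (58.1 CPM) were highest in the myeloid-like cluster 15 among the 12 TIL clusters with at least 50 cells, and in cluster 3 they were at 3.45 CPM, 5.58 CPM and 0 CPM. Cycling-like clusters differed in cell type as well as in library, and these cannot be told apart here. Cluster 16 had 8 IL-17 type and 5 cytotoxic type markers at 50 CPM or more, and cluster 17 had 0 and 11. Il17a was at 3623 CPM in the TIL cells of cluster 16 and 0.69 CPM in the IEL cells of cluster 17. Cluster 17 also held 15 TIL cells. The 126 cells of cluster 16, all from TIL, had Areg at 2619 CPM and Hbegf at 82.3 CPM, and the 89 IEL cells of cluster 17 had Areg at 21.4 CPM and Hbegf at 2.76 CPM. One of these IEL cells had 23 of their 31 Areg UMIs, and without it Areg was at 5.60 CPM.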
